A study of Arabidopsis thaliana with 36 samples.

Results

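Root gene expression late in the light period was compared with root gene expression in the afternoon in unstressed control seedlings of Arabidopsis thaliana. The comparison set the 2 arrays of Control-Roots at 12 h against the 4 arrays of Control-Roots at 4 and 6 h, so 6 of the 36 arrays of the series were chosen by tissue and time label alone. The plants were wild type Col-0 (stock N1092), grown on Murashige and Skoog medium at 24 °C and 50% humidity with 16 h of light a day. On day 16 the time count began 3 h into the light period. Counted from there, the 12 h roots were taken 15 h after lights on, the 4 h roots 7 h after and the 6 h roots 9 h after. All groups, the 4 and 6 h ones included, were the controls of a stress study: they received no stress, but their growth boxes were carried out of the climate chamber, opened and returned, and the raft with the plants was lifted. Shoots of the same labels and times, also with 2 arrays a time, served as the second organ. Each array is an Affymetrix ATH1 array that reads 22810 probe sets, and the labels do not say whether the 2 arrays of a time came from separate plants. The p-values below therefore measure the spread between arrays, which may be technical, and whole organs cannot tell fewer cells of a type from less RNA per cell.

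A plant's circadian clock is a network of genes that repress and activate one another in a daily order, and GIGANTEA (GI) is the member known for its peak late in the day. Light drives photosynthesis in the shoot, and the sugar made there is carried to the root, which has no photosynthesis of its own. Many genes of catabolism are known to be transcribed when sugar is short and repressed when it is plentiful, through a signalling chain that includes the SnRK1 kinase. Flavonoids are pigments and protectants built from phenylalanine and stored as glycosides, and expansins loosen the cell wall during growth.

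The 18 root arrays were alike in overall level. Between 52.1% and 54.1% of probe sets reached a signal of 40, and the replicate arrays of 12 h correlated across probe sets at 0.990, those of 4 h at 0.982 and those of 6 h at 0.973. The labelled organ fitted its markers. The median signal of 11 root marker genes lay between 555 and 1050.3 on the root arrays, and that of 8 photosynthesis genes between 23.8 and 54.2, against 3808 to 5012 for the same 8 genes on the shoot arrays. On the 12 h arrays 2 of the 8 photosynthesis genes were at 40 or more, against 2 to 4 on the afternoon arrays, and their summed signal was 304 and 334 at 12 h against 298 to 421 in the afternoon. Summed root marker signal was 9728 and 10404 at 12 h against 10469 to 11414 in the afternoon. The 25S ribosomal RNA control read 1809 and 1738 at 12 h, against 2110 and 2286 at 4 h and 2194 and 1672 at 6 h. One afternoon array thus lay below both 12 h arrays and the other 3 above them.

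Of 13346 probe sets tested, 336 were higher at 12 h than at 4 and 6 h (2.52%) and 276 were lower (2.07%), by limma with an adjusted p under 0.05. The difference throughout is the 12 h mean minus the average of the 4 h and 6 h means on the log2(signal + 10) scale, so it understates the change of dim genes. At least a 2-fold difference was reached by 24 of the higher and 52 of the lower probe sets. Both 12 h arrays lay above all 4 afternoon arrays in 2422 probe sets (18.1%) and below all 4 in 1823 (13.7%). Among the called ones that held for 334 of the 336 higher and 270 of the 276 lower. Together the 612 calls are 4.59% of the probe sets tested, and 3020 (22.6%) had an unadjusted p under 0.05. The median over all probe sets tested was 0.02.

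These counts lean on the 12 h arrays. With only 1 of them left in, 40 probe sets were called without replicate 1 and 51 without replicate 2, and 38 of the 40 and all 51 were among the 612. Without 4 h replicate 2 there were 241 calls, and without 6 h replicate 2 there were 291. None of the 612 changed direction when any of the 6 arrays was left out. Set against 4 h alone, 187 probe sets were higher (1.4%) and 198 lower (1.48%), and set against 6 h alone, 245 were higher (1.84%) and 198 lower (1.48%). Both of those comparisons use the same 12 h arrays, and 157 probe sets of the 612 passed in both in 1 direction. Between the afternoon times few probe sets were called: 3 were higher at 6 h than at 4 h (0.0225%) and 13 were lower (0.0974%). An unadjusted p under 0.05 was reached by 1521 of the 13346, so the few calls do not show that these arrays were alike. The log2 difference between replicates had an SD over probe sets of 0.296 at 6 h, 0.242 at 4 h and 0.183 at 12 h.

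**Figure D1:**
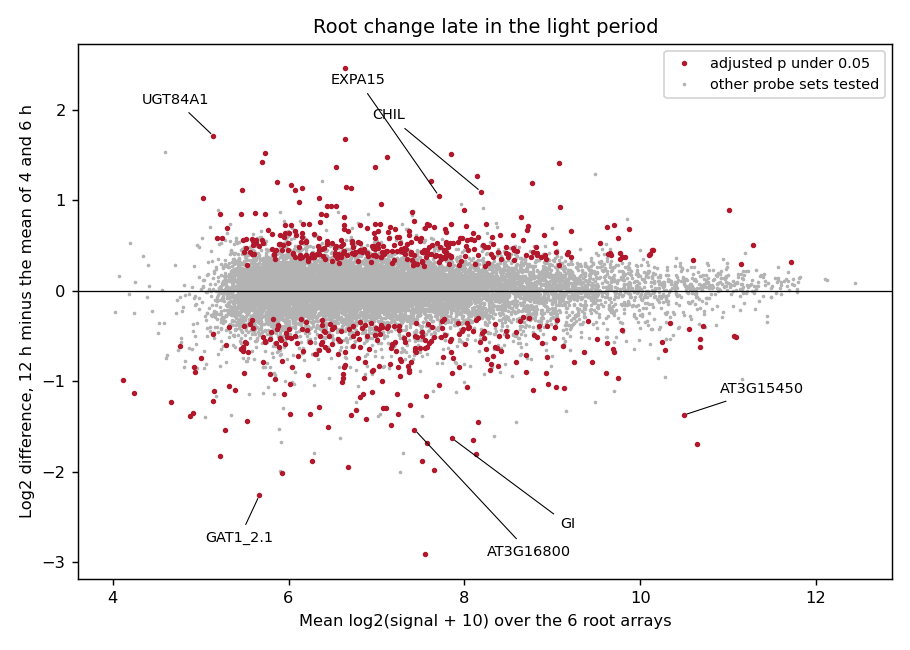
Each point is 1 probe set, with its mean log2(signal + 10) over the 6 root arrays on the x axis and its log2 difference, 12 h minus the mean of 4 and 6 h, on the y axis. The 612 red points passed an adjusted p of 0.05 and lie on both sides of 0, and the largest differences, 2.46 and -2.92, belong to probe sets not paired with a single gene.

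Among probe sets paired with 1 gene, 162 were higher and 147 lower. The largest increase was in UGT84A1, which glucosylates hydroxycinnamic acids, the precursors of lignin and sinapate esters. Its signal was 64.2 and 72.2 at 12 h, against 12.7 and 11.4 at 4 h and 14.7 and 17.0 at 6 h. The 12 h arrays were several times brighter than every afternoon array, and the groups did not overlap (log2 difference 1.71 ± 0.20 SE, limma adjusted p = 0.00076). At the 6 other root times its mean lay between 4.12 and 13.1, so 12 h stood alone in the course. Next came AT2G22590, with 224 and 191 at 12 h against 65.7 and 48.3 at 4 h and 67.3 and 51.9 at 6 h. Its rise was 1.68 ± 0.17 SE (limma adjusted p = 0.00018), and its mean at the 6 other times was between 27.3 and 50.0.

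AT2G23910 had 256 and 277 at 12 h, against 86.5 and 51.9 at 4 h and 105 and 128 at 6 h (1.49 ± 0.14 SE, limma adjusted p = 0.00014). Here 6 h already lay above 4 h in both arrays, and all other times were lower, with means of 26.6 to 48.5. AT5G62210 read 184 and 148 at 12 h, against 61.0 and 55.5 at 4 h and 60.4 and 54.1 at 6 h (1.37 ± 0.14 SE, limma adjusted p = 0.00027). The 4 afternoon arrays of this gene were nearly equal. The calls of UGT84A1, AT2G22590, AT2G23910 and AT5G62210 held whichever of the 6 arrays was left out, but that of UGT84A1 was lost with no pseudocount (limma adjusted p = 0.081). The other genes among the 12 largest increases were AT4G11190, AT5G05250, AT1G47400, CHIL, EXPA15, UGT78D1, AT3G27400 and ATPMEPCRB, between 0.99 and 1.52. All 8 lost their call without 12 h replicate 1, at limma adjusted p between 0.0624 and 0.278, and all but AT1G47400 without 12 h replicate 2 (0.0813 to 0.196). AT5G05250 and AT3G27400 also lost theirs without 4 h replicate 2 (0.103 and 0.121) or 6 h replicate 2 (0.0623 and 0.116), AT5G05250 without 6 h replicate 1 (0.0566) and AT3G27400 without 4 h replicate 1 (0.0557).

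The largest decrease was in GAT1_2.1, a glutamine amidotransferase. Its signal was 11.3 and 5.03 at 12 h, against 61.9 and 120.1 at 4 h and 39.5 and 107 at 6 h. Both 12 h values were far below all others, but the afternoon arrays themselves spread about 3 times in level (log2 difference -2.26 ± 0.44 SE, limma adjusted p = 0.015). The call was lost without 12 h replicate 1 (limma adjusted p = 0.105), 12 h replicate 2 (0.148) or 4 h replicate 2 (0.0536). AT3G16800 was steadier, with 78.1 and 72.0 at 12 h against 304 and 295 at 4 h and 188 and 184 at 6 h. It fell by 1.54 (± 0.10 SE, limma adjusted p = 5.1e-06), and its means at the 6 other times were between 323 and 455.

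CYP71B26, a cytochrome P450, had 44.4 and 46.4 at 12 h, against 153 and 159 at 4 h and 112 and 115 at 6 h (-1.37 ± 0.13 SE, limma adjusted p = 0.00014). Replicates lay close together at each time, and 12 h was below every other time of the course. AT1G70880 took another course: it read 13.5 and 14.0 at 12 h, against 47.7 and 69.0 at 4 h and 50.8 and 51.7 at 6 h (-1.44 ± 0.12 SE, limma adjusted p = 3.5e-05). Its mean at the 6 other times was only 10.1 to 17.58, so the afternoon was high and 12 h was back at the level of the rest of the day. GI, AT3G16800, AT1G70880 and CYP71B26 kept their calls whichever array was left out. The remaining 7 of the 12 largest decreases were AT5G19890, AT3G11930, AT5G61590 (DEWAX, a regulator of wax synthesis), AT3G10020, AT3G15450, AT5G62360 and AT2G28780, between -1.88 and -1.30. Each of the 7 lost its call without 12 h replicate 1 (limma adjusted p between 0.0602 and 0.316), and all but AT2G28780 without 12 h replicate 2 (0.0665 to 0.127). AT3G11930 also lost its call without 4 h replicate 2 (0.095), 6 h replicate 1 (0.0696) or 6 h replicate 2 (0.0518). With all arrays kept, 19 of the 24 leading genes were called under every setting that tested them. The comparisons with 4 h alone or 6 h alone were not counted among these settings. Of the 19, AT1G47400, AT1G70880, AT5G62360 and UGT78D1 were too dim to be tested under a filter of 100. The exceptions were UGT84A1, AT5G05250, AT3G27400, ATPMEPCRB and AT3G11930.

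**Figure D2:**
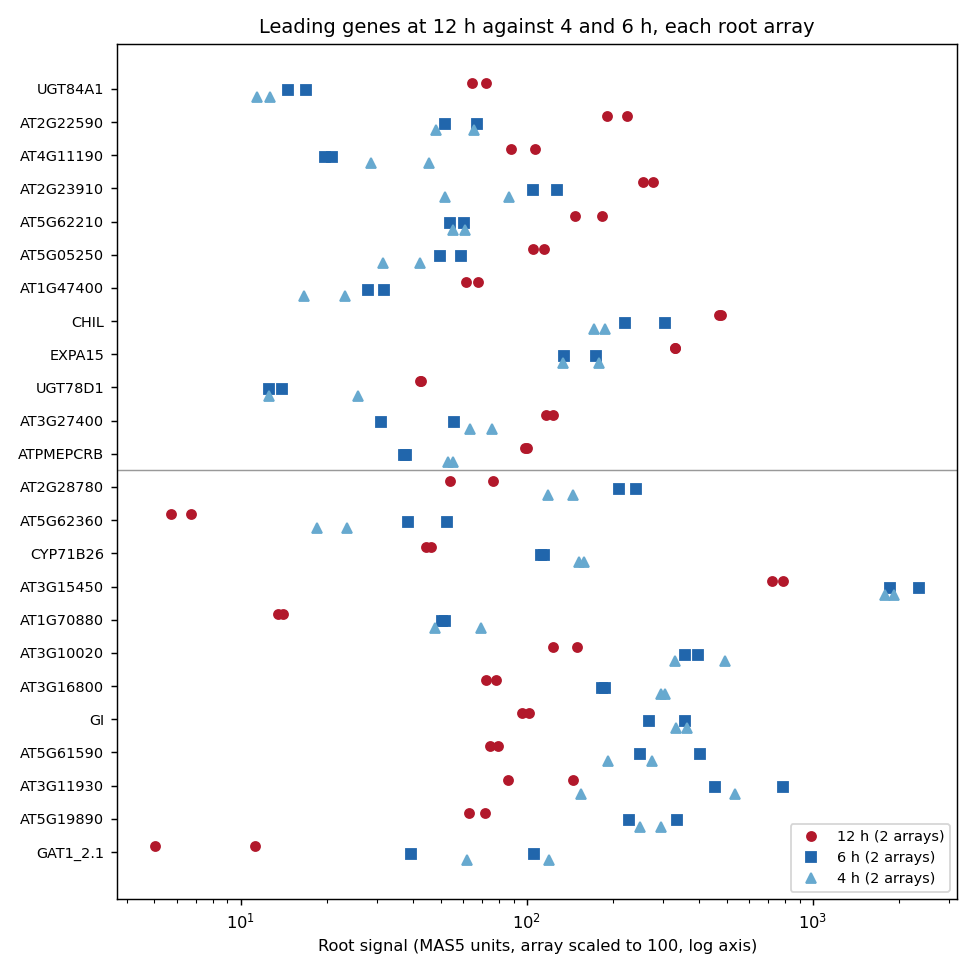
Root signal on a log axis for the 24 leading genes, with 1 point an array: 12 h in red, 6 h in dark blue and 4 h in light blue. In the 12 upper genes both red points lie to the right of all 4 blue ones and in the 12 lower genes to the left, as the choice of these genes required. AT3G11930 comes closest to overlap, with 146 at 12 h against 155 at 4 h.

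Of the 5 clock-list genes tested, 3 fell, 2 did not pass the test and none rose, with a median of -0.61. Over all probe sets tested 2.07% were called lower. GI read 96.3 and 102 at 12 h, against 364 and 332 at 4 h and 357 and 268 at 6 h. The 12 h arrays were about equal and far below every afternoon array (-1.63 ± 0.11 SE, limma adjusted p = 5.1e-06). Over the root course the GI mean started at 156 (0 h), stood at 313 (3 h), 348 (4 h) and 312 (6 h), reached its lowest level of all 9 times at 99.3 (12 h) and was 212 the next morning (24 h). AT4G33980 read 36.7 and 40.4 at 12 h, against 49.8 and 75.2 at 4 h and 133 and 90.9 at 6 h (-0.93 ± 0.17 SE, limma adjusted p = 0.012). Unlike GI it was still far above its morning level at 12 h, since its mean was 4.29 at 0 h and 6.29 at 24 h. The third, AT1G69570, was dim: 8.96 and 12.1 at 12 h, against 20.6 and 23.2 at 4 h and 26.9 and 15.3 at 6 h (-0.61 ± 0.16 SE, limma adjusted p = 0.049). Only GI kept its call without either 12 h array. AT4G33980 had an adjusted p of 0.141 without replicate 1 and 0.0979 without replicate 2, and AT1G69570 lost its call without any 1 array but 6 h replicate 2, at up to 0.344. The median was -1.01 with no pseudocount and -0.24 with a pseudocount of 50, and the list had 2 calls, or 1, under several settings. Only 6 of the 35 listed clock genes were paired with a probe set on this array by the probe table, so most of the clock was not analysed here. The only light-signalling gene tested, HYH, a bZIP factor related to HY5, rose by 0.50 ± 0.13 SE (limma adjusted p = 0.046). It read 59.0 and 77.2 at 12 h, against 39.7 and 40.8 at 4 h and 44.6 and 55.1 at 6 h, and leaving out any 1 array took its call away (adjusted p between 0.0555 and 0.343).

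**Figure D3:**
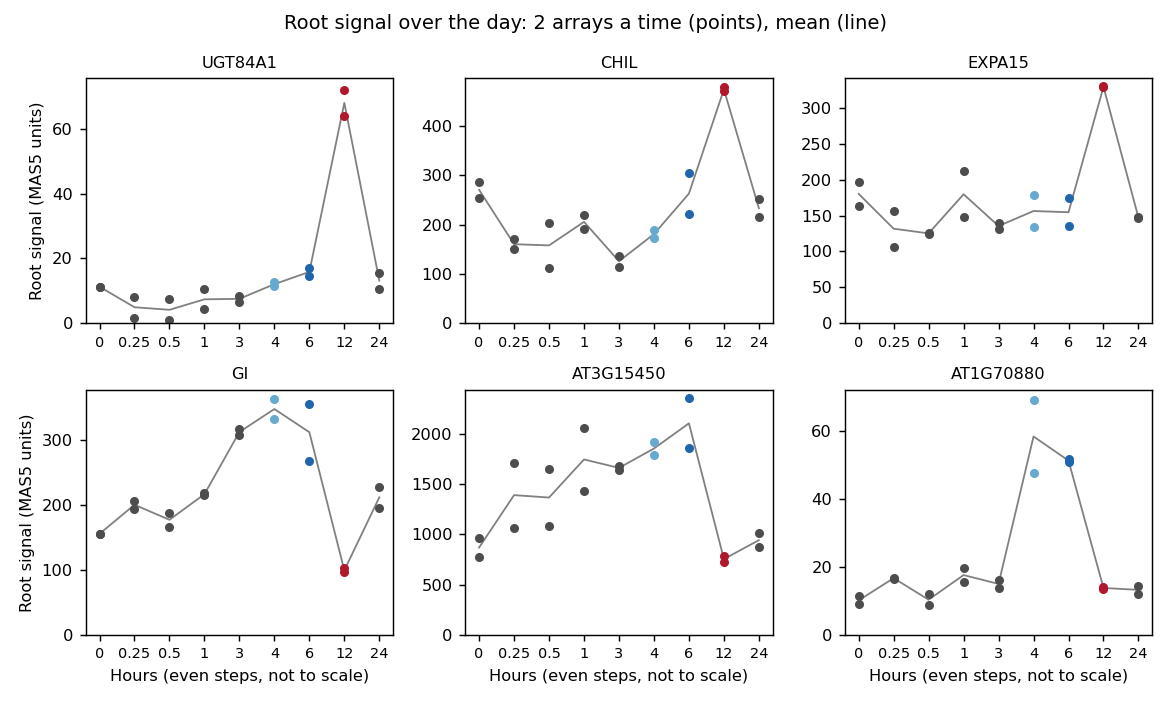
Root signal of 6 leading genes at the 9 times, drawn in even steps, with 2 arrays a time as points (4 h light blue, 6 h dark blue, 12 h red) and their mean as a line. UGT84A1, CHIL and EXPA15 are highest at 12 h, GI and AT3G15450 are lowest there, and AT1G70880 is high at 4 and 6 h only.

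All 6 genes of the sugar starvation list were lower on both 12 h arrays than on all 4 afternoon arrays, against 13.7% of all probe sets tested. Of these 4 fell past the threshold, against 2.07% of all probe sets tested, and 2 did not pass it, with a median of -0.69. AT3G15450 was the brightest, at 785 and 723 at 12 h, against 1795 and 1918 at 4 h and 1858 and 2357 at 6 h. All afternoon arrays were more than 2 times the 12 h arrays (-1.37 ± 0.21 SE, limma adjusted p = 0.0046), and the means at 0 h (869) and 24 h (943) were nearer to 12 h (754). AT5G19120 read 334 and 286 at 12 h, against 528 and 628 at 4 h and 559.7 and 652 at 6 h (-0.91 ± 0.22 SE, limma adjusted p = 0.035). AKINBETA1 encodes a beta subunit of the SnRK1 kinase. It read 125 and 135 at 12 h, against 162 and 206 at 4 h and 209 and 264 at 6 h (-0.63 ± 0.16 SE, limma adjusted p = 0.039). MCCA, a subunit of the methylcrotonyl-CoA carboxylase of leucine breakdown, read 99.5 and 97.6 at 12 h, against 134 and 159.5 at 4 h and 164 and 255 at 6 h (-0.75 ± 0.19 SE, limma adjusted p = 0.039). IVD, which acts 1 step before it, had a difference of -0.58 (limma adjusted p = 0.09), and MCCB, the other subunit, one of -0.39 (0.13). None of the 6 passed with a 12 h array left out (AT3G15450 at 0.0628 and 0.0772), and only AT3G15450 passed without 4 h replicate 2 or 6 h replicate 2. The 4 calls of the list were 1 with no filter, 1 with the 25S ribosomal RNA covariate, 1 against 4 h alone and 2 on the 6 arrays alone.

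Genes of nitrogen recycling, autophagy and lipid breakdown were named after their values were seen. ATG8E, one of the ubiquitin-like proteins that coat the autophagosome, read 198 and 199 at 12 h, against 298 and 406 at 4 h and 324 and 490.2 at 6 h (-0.88 ± 0.15 SE, limma adjusted p = 0.0078). The lowest afternoon array was thus well above both. Of the 8 autophagy genes tested, ATG8E and ATG8F fell, none rose, and 6 lay below all afternoon arrays at 12 h, with a median of -0.23. Of all probe sets tested, 2.07% were called lower and 13.7% lay below all afternoon arrays. ATG8F fell by 0.33, ± 0.09 SE (limma adjusted p = 0.045). ASPGB1, an asparaginase, fell by 0.83, ± 0.15 SE (limma adjusted p = 0.012), with 84.4 and 73.5 at 12 h against 144 and 147 at 4 h and 136 and 165 at 6 h. AAH, the allantoate amidohydrolase of purine breakdown, fell by 0.56, ± 0.14 SE (limma adjusted p = 0.038). SDP1, the lipase that opens storage oil, fell by 0.34, ± 0.09 SE (limma adjusted p = 0.046). LTI30, a dehydrin, read 524 and 555 at 12 h, against 1075 and 1182 at 4 h and 894 and 1119 at 6 h (-0.96 ± 0.15 SE, limma adjusted p = 0.0057). These 6 calls were all lost without either 12 h array, at adjusted p between 0.0707 and 0.346. Those of ATG8F, AAH and SDP1 were also lost without 4 h replicate 1 (0.0527 to 0.0679), 4 h replicate 2 (0.0727 to 0.115) or 6 h replicate 2 (0.0736 to 0.114), and AAH and SDP1 without 6 h replicate 1 (0.0622 and 0.0597). On the 6 arrays alone the autophagy list had 0 calls by limma, and it had 1 with no filter, no pseudocount or the 25S covariate.

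Several genes of flavonoid and phenylpropanoid glycosides rose. CHIL, a chalcone isomerase-like protein that aids the first steps of flavonoid synthesis, had 471 and 479 at 12 h, against 189 and 173 at 4 h and 222 and 304 at 6 h. The 12 h arrays agreed closely and lay above every afternoon array (1.096 ± 0.19 SE, limma adjusted p = 0.0078). UGT78D1, the flavonol rhamnosyltransferase, read 42.8 and 42.3 at 12 h, against 25.8 and 12.6 at 4 h and 12.5 and 14.0 at 6 h (1.03 ± 0.20 SE, limma adjusted p = 0.013). Its mean at 0 h was 39.2, close to that at 12 h. UGT78D2, the flavonoid glucosyltransferase, read 252 and 267 at 12 h, against 120.2 and 155 at 4 h and 149 and 187 at 6 h (0.74 ± 0.13 SE, limma adjusted p = 0.009), and 12 h was its highest time. DFR, which leads towards anthocyanins, read 35.6 and 40.02 at 12 h, against 45.8 and 10.5 at 4 h and 13.9 and 16.6 at 6 h. One 4 h array of DFR thus exceeded both 12 h arrays (0.71 ± 0.29 SE, limma adjusted p = 0.17). Of the 6 glucosinolate and flavonoid genes tested, UGT78D1 and UGT78D2 rose and none fell, against 2.52% of all probe sets called higher. The list median was 0.45, which was 0.24 with a pseudocount of 50 and 0.12, with 1 call, under a filter of 100.

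UGT72E2, which glucosylates monolignols, was named after its values were seen. It had 1110.2 and 1049 at 12 h, against 738 and 836 at 4 h and 640.0 and 478 at 6 h (0.70 ± 0.12 SE, limma adjusted p = 0.008), but its mean of 1096 at 24 h was as high. Of 25 genes with a UGT symbol tested, 4 rose, UGT76D1 fell and 20 did not pass, with a median of 0.08, which was -0.03 with no filter. Genes given by locus code alone, such as AT2G22590, are not in this count, whatever their family. Over all probe sets tested 2.52% were called higher and 2.07% lower. CCOAMT, a caffeoyl-CoA O-methyltransferase also named after its values were seen, fell by 1.03, ± 0.18 SE (limma adjusted p = 0.0078), with 28.1 and 32.3 at 12 h against 96.5 and 67.5 at 4 h and 52.5 and 77.3 at 6 h. Without a 12 h array the calls of CHIL, UGT78D1, UGT78D2, UGT72E2 and CCOAMT were lost, at adjusted p between 0.0726 and 0.14. UGT84A1 was kept, at 0.0171 without replicate 1 and 0.0277 without replicate 2. UGT76D1 fell by 0.31 only and lost its call without any 1 of the 6 arrays (up to 0.291).

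Some cell-wall genes also rose. EXPA15, an alpha-expansin, read 331 and 329 at 12 h, against 179.5 and 134 at 4 h and 174 and 136 at 6 h. The 4 afternoon arrays fell into the same 2 levels at both times, and the 12 h arrays lay above all of them (1.05 ± 0.17 SE, limma adjusted p = 0.0059). EXPB3, a beta-expansin, read 391 and 365 at 12 h, against 242 and 149.9 at 4 h and 234 and 181 at 6 h (0.90 ± 0.18 SE, limma adjusted p = 0.015). EXPA4 read 695 and 696 at 12 h, against 538 and 458 at 4 h and 449 and 298 at 6 h, which did not pass (0.69 ± 0.19 SE, limma adjusted p = 0.061). Of the 13 expansins tested, EXPA15 and EXPB3 rose, none fell and 11 did not pass, against 2.52% of all probe sets called higher. The median was 0.18, which was 0.11 with a pseudocount of 50 and 0.55 under a filter of 100. On the 6 arrays alone, and in the fit on all 36 arrays, 1 expansin was called. EXPA7, of root hairs, had a difference of -0.37 (limma adjusted p = 0.25), and none of the 3 root hair and epidermis genes tested passed.

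ATPMEPCRB, a pectin methylesterase, read 98.7 and 100.1 at 12 h, against 55.2 and 53.1 at 4 h and 37.2 and 37.9 at 6 h (0.99 ± 0.19 SE, limma adjusted p = 0.015). Its means from 0 to 0.5 h were higher still, at 109 to 131, so the afternoon was its low point. The cellulases GH9B8 and GH9C2, named after their values were seen, rose by 0.96 ± 0.20 SE (limma adjusted p = 0.018) and 0.62 ± 0.14 SE (limma adjusted p = 0.031). They were 2 of 6 genes of glycosyl hydrolase family 9 tested, against 2.52% of all probe sets called higher. None of the 6 fell, and the median was 0.31. On the 6 arrays alone, with the 25S covariate or against 4 h alone, the family had 0 calls by limma, and with no filter its median was 0.08. The tubulins TUA6 and TUB7 rose by 0.40 ± 0.08 SE (limma adjusted p = 0.013) and 0.41 ± 0.10 SE (limma adjusted p = 0.04). They were 2 of the 10 kinesin and tubulin genes tested, against 2.52% of all probe sets called higher, and neither was called on the 6 arrays alone. XTH16, one of 7 xyloglucan endotransglucosylases, fell by 0.53, ± 0.14 SE (limma adjusted p = 0.048), although a 4 h array, at 41.4, lay below the higher 12 h array, at 42.7. All of these wall and tubulin calls were lost without either 12 h array (adjusted p between 0.0744 and 0.348). Those of GH9C2, TUB7 and XTH16 were lost without 4 h replicate 2 too, those of GH9B8, GH9C2, TUB7 and XTH16 without 6 h replicate 2, and that of XTH16 without 4 h replicate 1.

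**Figure D4:**
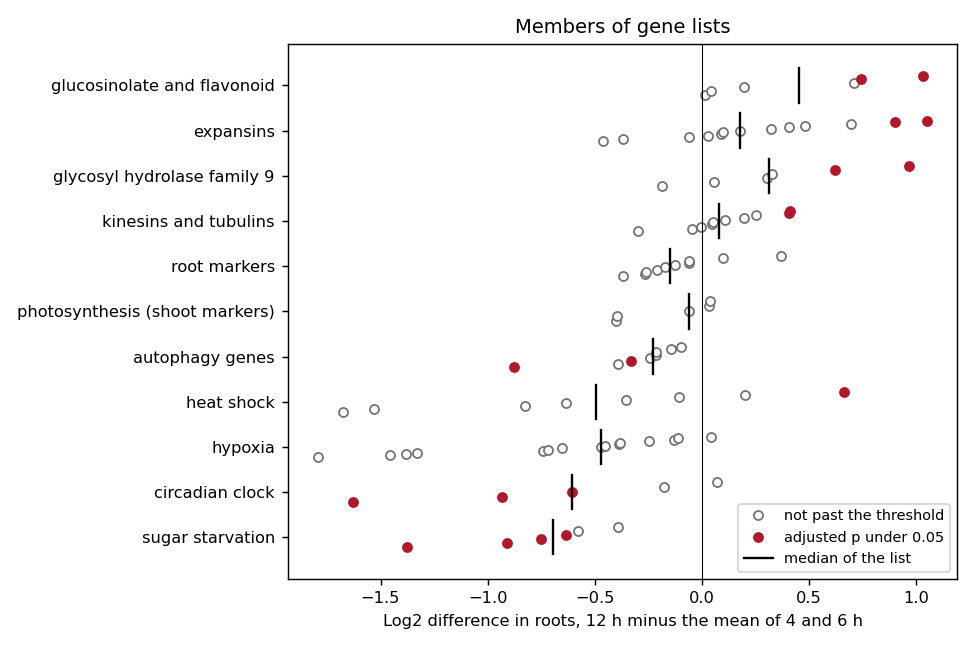
Log2 difference in roots, 12 h minus the mean of 4 and 6 h, for every tested member of 11 gene lists. Filled points passed an adjusted p of 0.05 and black bars mark list medians, which run from -0.69 for sugar starvation to 0.45 for glucosinolate and flavonoid genes, against 0.02 over all probe sets tested. The autophagy and glycosyl hydrolase lists were made after values were seen.

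The hypoxia and heat shock lists had medians below that of all probe sets. The hypoxia list held 30 genes, of which the probe table paired 15 with a probe set, and the result covers these members only. None of the 15 hypoxia genes tested passed by limma. By limma 1 was called lower under a filter of 100, which tested 14 of them, and 1 in the fit on all 36 arrays. Leading decreases given by locus code alone, such as AT3G10020, are not among the 15. An unadjusted p under 0.05 was reached by 5, all 5 lower at 12 h, against 22.6% of all probe sets tested. Their median was -0.47 over the 15, or -0.27 with the 25S covariate. Replicates of these genes lay far apart. AT1G33055 read 119 and 289 at 12 h, against 317 and 704 at 4 h and 847 and 408 at 6 h (limma adjusted p = 0.059). AT5G10040 read 27.2 and 118 at 12 h, against 71.2 and 364 at 4 h and 611 and 163 at 6 h, with overlap between the groups (limma adjusted p = 0.17). The 6 h replicates stood furthest apart: the summed signal of the 15 genes was 3089 and 4986 at 12 h, against 4203 and 7143 at 4 h and 10772 and 5110.4 at 6 h. Of the 8 heat shock genes tested none fell past the threshold, with a median of -0.49. An unadjusted p under 0.05 was reached by 5 of them, 4 lower and 1 higher at 12 h, against 22.6% of all probe sets tested. AT2G29500 read 15.8 and 19.8 at 12 h, against 25.3 and 139 at 4 h and 107 and 89.4 at 6 h (limma adjusted p = 0.068). The heat shock list's only call was a rise, in AT3G09440 (0.66 ± 0.13 SE, limma adjusted p = 0.015). That gene read 779.9 and 806 at 12 h, against 649 and 679.8 at 4 h and 382 and 362 at 6 h, and was not called against 4 h alone (0.25, limma adjusted p = 0.39) or without 12 h replicate 1 (0.14) or 2 (0.132).

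Without 4 h replicate 1, 2 of the hypoxia genes and 3 of the heat shock genes were called lower at 12 h. None of the 5 touch and rapid stress genes passed, and 1 had an unadjusted p under 0.05. In the list of abscisic acid, drought and cold genes 2 were tested, of which LTI30, given above, fell.

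The lists of nutrition and growth are short, and 4.59% of all probe sets tested were called and 22.6% had an unadjusted p under 0.05, so few calls say little about them. The counts cover the tested members only. In the iron list 5 of 31 genes were paired with a probe set by the probe table, so most of that list was not analysed here. The 4 iron genes tested had differences from -0.27 to 0.09. Leading increases given by locus code alone, such as AT1G47400 and AT5G05250, are not among them. Whether those genes act in iron supply was not looked into. Of the 5 genes tested from the list named nitrogen uptake and assimilation, AT5G41670 alone passed, and its own role was not looked into. It rose by 0.53 ± 0.14 SE (limma adjusted p = 0.048). Its call was lost without either 12 h array, 4 h replicate 2 or 6 h replicate 2. With 1 array left out its difference lay between 0.39 and 0.68. No gene passed by limma among 3 of sulfate uptake and assimilation (1 at an unadjusted p under 0.05), 4 of iron uptake and homeostasis (0), 4 of starch and sucrose metabolism (3), 7 of mitochondrial respiration (1), 5 of auxin response and transport (1), 9 glutathione S-transferases (1), 6 WRKY factors (0), 5 bHLH factors (2) and 10 root markers (1). The 5 photosynthesis genes tested had a median of -0.06 and no call, with LHCB4.1 at -0.40 (limma adjusted p = 0.18). AT5G66390, a peroxidase (PRX72), fell by 0.50, ± 0.13 SE (limma adjusted p = 0.041), as the only call among the 5 class III peroxidases that a search of gene names found. Its call was lost without any 1 array but 6 h replicate 1, at up to 0.31. A search of names can miss members of this family, so the count covers these 5 only. Leading genes given by locus code alone, such as AT5G19890, are not among them and were not checked for membership beyond that search.

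A few other genes of known function were named after their values were seen. LPR1, the ferroxidase of the root's response to low phosphate, read 141 and 154 at 12 h, against 80.1 and 81.0 at 4 h and 98.4 and 81.7 at 6 h (0.73 ± 0.14 SE, limma adjusted p = 0.013). AFR, an F-box protein of far-red light signalling, rose by 0.64 ± 0.10 SE (limma adjusted p = 0.0049), with 74.8 and 77.4 at 12 h against 49.8 and 42.9 at 4 h and 47.2 and 41.5 at 6 h. CLE41, a peptide signal of the vascular meristem, rose by 0.51 ± 0.12 SE (limma adjusted p = 0.029), and BUB3.1, of the spindle checkpoint, by 0.44 ± 0.10 SE (limma adjusted p = 0.031). SWEET13, a sucrose exporter, rose by 0.85 ± 0.22 SE (limma adjusted p = 0.045), with 51.5 and 39.2 at 12 h against 17.44 and 18.18 at 4 h and 33.7 and 15.7 at 6 h. The 3 other SWEET genes tested did not pass, and 2 of them were lower at an unadjusted p under 0.05, against 22.6% of all probe sets at that level either way. The median of the 4 SWEET genes was -0.17. Both chaperonins of the plastid that were tested, Cpn60beta2 and Cpn60beta3, rose, by 0.61 ± 0.09 SE (limma adjusted p = 0.0038) and 0.42 ± 0.08 SE (limma adjusted p = 0.012).

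SUFE2, of iron-sulphur cluster assembly, read 76.0 and 72.3 at 12 h, against 172 and 180.4 at 4 h and 118 and 169.6 at 6 h (-0.999 ± 0.16 SE, limma adjusted p = 0.0063). OCT1, a carnitine transporter, read 1.23 and 0.720 at 12 h, against 26.4 and 39.4 at 4 h and 1.24 and 1.13 at 6 h. The groups overlapped (-0.99 ± 0.22 SE, limma adjusted p = 0.024). It was as dim at 6 h as at 12 h, with a difference of -0.03 from 6 h (limma adjusted p = 0.97) and of -1.95 from 4 h (limma adjusted p = 0.0015). Without 12 h replicate 1 the adjusted p of these 9 genes lay between 0.0715 and 0.336, and without 12 h replicate 2 only Cpn60beta2 kept its call, at 0.0105. The calls of CLE41, BUB3.1, SWEET13 and OCT1 were lost without 4 h replicate 2 as well (0.0846 to 0.107), and without 6 h replicate 2 (0.0567 to 0.106), and that of SWEET13 without 4 h replicate 1 (0.07).

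For most called probe sets 12 h was the extreme of the whole root course, not only of the afternoon and evening. Of the 336 higher probe sets, 275 (81.8%) had their highest of the 9 root means at 12 h, against 16.9% of all probe sets tested. Of the 276 lower ones, 181 (65.6%) had their lowest mean there, against 11.1% of all. Both 12 h arrays lay above all 12 arrays of the 6 other times in 204 of the 336 (60.7%), against 6.11% of all probe sets tested, and below all 12 in 124 of the 276 (44.9%), against 3.69%. The 12 h arrays enter both the call and the rank, so these shares describe the called sets and test nothing. Among the 24 leading genes, 10 of the 12 increases and 9 of the 12 decreases had a 12 h mean beyond those of the 6 other times, with AT1G70880 among the exceptions.

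In shoots, the same times gave many more calls: 1875 of 15091 probe sets were higher at 12 h (12.4%) and 1882 lower (12.5%). Of the 336 probe sets higher in roots, 86 (25.6%) were also higher in shoots, which is 5.82% of the shoot calls among the 13346 tested in both organs, while 18 were lower there. Of the 276 lower in roots, 119 (43.1%) were also lower in shoots, 7.3% of the shoot calls, and 12 were higher. Over all 13346 tested in both organs, 11.1% were called higher in shoots and 12.2% lower. Across the 612 called probe sets the changes in the 2 organs had r = 0.559, and across all 13346 r = 0.310, both over genes of the same arrays and given as a description. The root change minus the shoot change was tested itself on all 36 arrays: it was above 0 in 956 probe sets (6.33%) and below 0 in 933 (6.18%), and it passed for 217 of the 612.

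Genes that moved in both organs included GI, CYP71B26 and AT3G15450, each lower at 12 h in roots and more so in shoots. GI changed by -1.63 in roots and -2.29 in shoots, with a tested difference of 0.66 (limma adjusted p = 0.0067). For AT3G15450 the changes were -1.37 in roots and -2.89 in shoots (1.51, limma adjusted p = 0.007), and for CYP71B26 -1.37 in roots and -2.61 in shoots (1.24, limma adjusted p = 0.0032). CHIL rose in both, by 1.096 in roots and 1.15 in shoots, with a tested difference of -0.06 ± 0.29 SE (limma adjusted p = 0.93). UGT78D1, UGT78D2, LTI30 and ATG8E also passed in both organs in 1 direction, and for none of these did the difference between organs pass.

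UGT84A1 changed by 1.71 in roots and 0.06 ± 0.17 SE in shoots, with a difference of 1.65 (limma adjusted p = 6.4e-05). AT2G22590 (1.68 in roots, 0.21 in shoots) and EXPA15 (1.05 in roots, 0.05 in shoots) also rose more in roots than in shoots, by 1.47 (limma adjusted p = 0.0022) and 1.001 (limma adjusted p = 0.019). AT1G70880 fell by 1.44 in roots, against a change of -0.28 in shoots (difference -1.15, limma adjusted p = 0.00024).

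Opposite changes, each past the threshold, were found in 16 probe sets paired with 1 gene. They were 8 of the 162 higher in roots and 8 of the 147 lower in roots. Over all probe sets tested in both organs, 12.2% were called lower in shoots and 11.1% higher. The genes named here were chosen after their values were seen. AT5G47050 read 85.7 and 94.1 at 12 h in roots, against 177 and 199 at 4 h and 148 and 212 at 6 h, a change of -0.95, while in shoots it rose by 1.15 (difference -2.10, limma adjusted p = 3.8e-06). AT4G33980, of the clock list, fell by 0.93 in roots and rose by 0.87 in shoots (difference -1.80, limma adjusted p = 0.0001). AT3G29240 changed by -1.04 in roots and 0.93 in shoots (difference -1.97, limma adjusted p = 4.6e-05). CHL, a chloroplastic lipocalin, changed by -0.37 in roots and 0.54 in shoots, and AT3G01350 by -0.38 in roots and 0.77 in shoots. In the other direction UGT72E2 changed by 0.70 in roots and -0.60 in shoots (difference 1.297, limma adjusted p = 9.8e-05), bZIP44, a transcription factor, by 0.49 in roots and -0.46 in shoots, and TRM82, of tRNA modification, by 0.43 in roots and -0.49 in shoots. The root calls of all 8 were lost without either 12 h array (limma adjusted p between 0.0813 and 0.321). Those of AT3G29240, CHL, AT3G01350, bZIP44 and TRM82 were also lost without 4 h replicate 2 (0.0525 to 0.0998), those of AT3G01350, bZIP44 and TRM82 without 6 h replicate 2 (0.0582 to 0.104), those of CHL, bZIP44 and TRM82 without 4 h replicate 1 (0.0508 to 0.0709), and those of CHL and bZIP44 without 6 h replicate 1 (0.0683 and 0.0522).

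**Figure D5:**
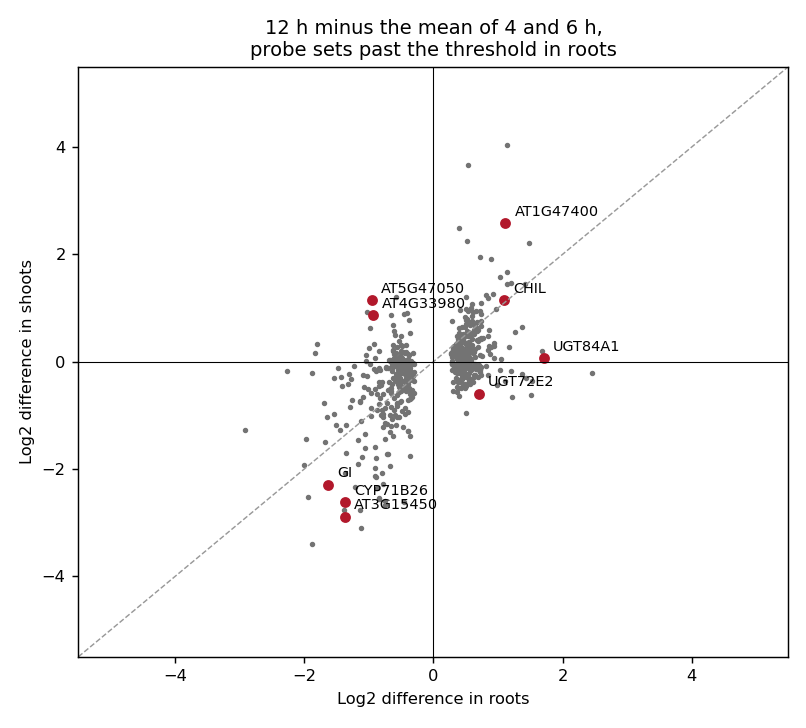
Each of the 612 probe sets called in roots is drawn with its log2 difference, 12 h minus the mean of 4 and 6 h, in roots on the x axis and in shoots on the y axis, and the dashed line marks equal change. GI, CYP71B26 and AT3G15450 lie below 0 in both organs, UGT84A1 is near 0 in shoots, and AT5G47050 and AT4G33980 are below 0 in roots and above 0 in shoots.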

How the data were processed

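Whole roots and shoots were read on Affymetrix ATH1 arrays, 2 a time and organ. The deposited values are intensities: the authors made 1 signal per probe set with MAS5, per the submitters' processing notes (version not given in the sources used here), and scaled each array, since the 2%-trimmed mean of every root array is 100.0.

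From these, log2(signal + 10) was taken with no further normalization. The 64 control probe sets were left out, and a probe set was kept where 2 or more of the 18 root arrays read 40 or higher. limma 3.58.1 in R 4.3.3 fitted 9 root means (9 residual degrees of freedom, so the 12 h and afternoon arrays borrow their spread from all root times), with 2-sided tests and Benjamini-Hochberg adjustment at 0.05 over all kept probe sets. The difference between organs came from 18 means on 36 arrays, with the filter over those 36. The scripts were tested on simulated data. The number of arrays limits the precision.

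Of 22810 probe sets the platform table pairs 13513 with 1 gene, 503 with several and 8794 with none, and 13436 of the 13513 had an entry in the RefSeq gene table of TAIR10.1, from which names alone were taken. Named genes are probe sets of 1 gene: the 12 largest called differences each way with both 12 h arrays beyond all 4 afternoon arrays, the 5 with the smallest p each way in the difference between organs, and up to 4 members a list by smallest p. Members and lists were chosen with earlier results of these data known, and further genes and symbol families were chosen after values were seen, as said beside them. Promoters were not analysed here. Replicate numbers were not taken to pair the arrays: deviations of same-numbered arrays correlated at 0.101, -0.018 and 0.036. These values cannot settle whether same-numbered arrays came from plants grown or harvested together, and the labels do not say. Alternatives varied the pseudocount, filter, normalization, prior, arrays, block and covariate.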

Additional observations from a re-analysis of the deposited data

Results flagged for a closer look

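The root change minus the shoot change, 12 h against 4 and 6 h on the log2 scale, was tested itself on all 36 arrays with limma and passed an adjusted p of 0.05 for the genes below.

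The smallest p-values on the side above 0 were those of AT5G35970 (2.27), AT3G53990 (1.41), AT3G05910 (1.23), AT5G57345 (1.63) and AT2G29670 (1.33). On the side below 0 they were those of AT3G28270 (-3.10), AT2G36835 (-1.47), LHCB4.3, a light-harvesting antenna protein (-2.50), ATSPS4F, a sucrose-phosphate synthase (-2.03), and AT1G62780 (-1.23). Of these 10 only AT3G53990 passed in roots, by -0.36 against -1.77 in shoots. The other 9 changed by -0.22 to 0.10 in roots, without passing, and by -2.37 to 3.21 in shoots, and AT3G28270 read only 0.64 to 3.51 on the 6 root arrays.

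Among named genes called in roots, the value was above 0 for AT4G11190 (1.88), UGT84A1 (1.65), AT3G15450 (1.51), AT2G22590 (1.47), UGT72E2 (1.297), CYP71B26 (1.24), AT3G27400 (1.19), SWEET13 (1.09) and EXPA15 (1.001). It was also above 0 for bZIP44 (0.95), TRM82 (0.92), AFR (0.89), LPR1 (0.84), BUB3.1 (0.76), AILP1 (0.68), GI (0.66), TUB7 (0.63), THE1 (0.53) and TUA6 (0.33). For AT3G15450, CYP71B26, GI and AILP1 (-0.75 in roots, -1.44 in shoots), which fell in both organs, a value above 0 means a smaller fall in roots.

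The value was below 0 for AT3G16800 (-0.57), CCOAMT (-0.76), CHL (-0.91), OCT1 (-0.94), AT2G28780 (-1.08), AT3G01350 (-1.15), AT1G70880 (-1.15) and AT1G47400 (-1.47). The same held for AT5G19890 (-1.68), AT4G33980 (-1.80), AT3G29240 (-1.97), AT5G47050 (-2.10) and AT3G11930 (-2.14). AT3G16800 fell in both organs, by more in roots. AT1G47400 rose in both organs, by 1.12 in roots and 2.58 in shoots.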

How the results depend on the processing

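No called gene named here changed direction under the settings run, but 1 of the 612 called probe sets did for 12 h against 6 h alone. Against 336 higher and 276 lower probe sets, no filter on low signal gave 179 and 166, and the 25S ribosomal RNA signal as a covariate gave 193 and 171. The 6 arrays fitted alone gave 135 and 191, so the share of higher calls was 41.4% against 54.9%, and 12 h against 4 h alone gave 187 higher and 198 lower (48.6% higher), so in both of these lower calls outnumbered higher ones. Leaving out 1 array gave 13 to 406 higher and 27 to 333 lower, lowest without 12 h replicate 1. For 6 h against 4 h, 16 probe sets differed, against 2 with no pseudocount, 3 with no filter, 9 on 6 arrays alone, 1 with the covariate and 1 to 5 with an array left out. The difference between organs passed for 1889 probe sets, for 1259 with 12 h against 6 h alone and for 1037 to 1870 with an array left out. The causes were not tested. The other settings stayed within 1.5 times of each count. With the replicate number as a block, 397 were higher and 325 lower, 21 differed between 6 h and 4 h and 1847 between organs. This is a hint only, since the labels do not say whether the numbers pair the arrays.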
